A study of Mus musculus with 12 samples.

Results

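The genes of cholesterol synthesis, sterol uptake and export, and the SREBP regulators that control them were followed in GSC-H cells, a mouse glioma stem cell line, after exposure to doranidazole, a nitroimidazole radiosensitizer. The set held 32 genes chosen by name for their known roles, and a gene was measured where the array annotation gave its symbol to a probe set. Of the 32, 27 were measured, each by 1 of the 22206 probe sets of the array, and Acat2, Tm7sf2, Srebf1, Soat1 and Nr1h2 were not analysed here.

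The arrays fell into 4 groups of 3: cells given 3 mM doranidazole at 1% O2 (Hx D), PBS at 1% O2 (Hx P), 3 mM doranidazole at 21% O2 (Nx D) and PBS at 21% O2 (Nx P), each for 24 h. All 4 groups share a genotype: GSC-H cells are neural stem cells null for Ink4a/Arf that overexpress oncogenic H-RasV12, kept in serum-free medium with growth factors and B27. They are a single line taken from mouse tumours, and the 3 arrays of a group were samples of a single experiment, so the p-values below measure the spread between these arrays. RNA of the whole culture was hybridised to Clariom S Mouse arrays, in which fewer cells of a kind and less RNA per cell cannot be told apart.

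Cells make cholesterol from acetyl-CoA through mevalonate, squalene and lanosterol, and several of the steps after squalene use molecular oxygen. The transcription factor SREBP-2, the product of Srebf2, switches on nearly every gene of this route together with genes of sterol uptake. SCAP escorts SREBP-2 out of the endoplasmic reticulum when sterols are low, INSIG proteins hold it back when they are high, and a pair of Golgi proteases release the active factor. When sterols are plentiful, oxysterols activate the nuclear receptor LXR, which raises export genes such as Abca1 and the gene for MYLIP, a ubiquitin ligase that sends lipoprotein receptors for degradation.

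Values are log2 signals as deposited, and a difference of 1 is a 2-fold change. Median signals of the 12 arrays lay between 4.65 and 4.88. Cdkn2a, the gene at the deleted Ink4a/Arf locus, read 1.94 to 2.49 on all arrays, below the lower quartile of each array (3.07 to 3.45). Of 7 neural and glioma stem cell markers 6 were measured, and Sox2, Nes, Vim and Cd44 read above 10 on every array. Fabp7 ranged from 4.27 to 11.25 and Olig2 from 4.61 to 7.42. Of the markers of other cell types, the 4 microglial, 3 endothelial, 3 neuronal and 2 oligodendrocyte markers measured stayed at or below 4.86, 5.45, 3.97 and 3.48, and the 3 astrocyte markers at or below 6.87, with Aqp4 the highest of them and Gfap and S100b at or below 3.92. Nx P replicate 2, Nx D replicate 2 and Hx P replicate 3 stood apart from their groups. Nx P replicate 2 had Ddit3, a stress-induced transcription factor gene, at 13.59, against 8.80 and 7.76 on the other Nx P arrays, and was the lowest of its group for 16 of the 17 synthesis genes measured. Hx P replicate 3 had Mki67, a proliferation marker, at 15.12, against 13.69 and 12.59 on the other Hx P arrays.

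RefSeq promoter windows of GRCm38.p6, running from 250 bases before to 50 bases after a gene's start, were found for 22 of the 27 genes, and 4 are shown for what they share. Capitals mark CCAAT boxes, the letters bound by NF-Y, a partner of SREBP, read on either strand (CCAAT or ATTGG), and in Hmgcs1 also the sterol regulatory element core TCACNCCAC. Hmgcs1 is shown as the only gene of the 22 with that core (chr13:119690101-119690400, plus strand), Mvk for its 5 boxes and its large fall below (chr5:114444019-114444318, plus strand), Srebf2 as the gene of the factor itself (chr15:82147019-82147318, plus strand) and Mylip as the gene that moved most in the other direction (chr13:45389492-45389791, plus strand).
Hmgcs1: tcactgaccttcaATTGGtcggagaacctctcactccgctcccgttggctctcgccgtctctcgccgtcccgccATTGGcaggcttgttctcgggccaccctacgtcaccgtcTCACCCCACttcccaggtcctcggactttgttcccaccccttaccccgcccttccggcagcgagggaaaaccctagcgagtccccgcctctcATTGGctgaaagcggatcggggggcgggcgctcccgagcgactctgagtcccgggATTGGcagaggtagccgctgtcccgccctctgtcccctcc
Mvk: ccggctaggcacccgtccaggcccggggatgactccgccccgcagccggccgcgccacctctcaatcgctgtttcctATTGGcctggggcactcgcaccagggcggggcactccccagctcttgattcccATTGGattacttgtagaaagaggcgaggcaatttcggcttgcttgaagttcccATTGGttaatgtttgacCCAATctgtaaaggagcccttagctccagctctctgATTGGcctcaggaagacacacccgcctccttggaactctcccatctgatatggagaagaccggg
Srebf2: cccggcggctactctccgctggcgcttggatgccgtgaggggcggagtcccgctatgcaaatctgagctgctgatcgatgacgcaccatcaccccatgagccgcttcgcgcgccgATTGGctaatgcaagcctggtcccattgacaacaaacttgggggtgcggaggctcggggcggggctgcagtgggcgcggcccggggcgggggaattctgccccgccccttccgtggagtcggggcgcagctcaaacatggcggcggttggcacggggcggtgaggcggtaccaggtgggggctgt
Mylip: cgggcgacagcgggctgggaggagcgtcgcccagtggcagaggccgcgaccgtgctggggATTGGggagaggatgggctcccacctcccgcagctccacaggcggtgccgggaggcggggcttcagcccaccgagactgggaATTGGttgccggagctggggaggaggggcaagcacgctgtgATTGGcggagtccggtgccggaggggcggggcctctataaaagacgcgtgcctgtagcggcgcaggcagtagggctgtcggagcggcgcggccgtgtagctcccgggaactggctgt
In Hmgcs1 the core TCACCCCAC began 137 bases before the start and overlapped none of its 4 boxes, of which 3 lay before the start. The core was present in 1.24% of all 32851 windows and in 1 of the 22 matched genes. A CCAAT box stood in at least 1 window of 18 of the 22 genes and of all 14 matched synthesis genes, against 42.2% of the 15691 genes on the array with a window and 37.4% of all windows. GC boxes (GGGCGG on either strand, counted apart from CCAAT boxes, with which they can share bases) stood in 13 of the 14 synthesis genes, against 51.2% of the array genes and 35.7% of all windows. The hypoxia response element core (ACGTG or GCGTG on either strand) stood in 9 of the 14, against 54.1% and 43.8%. Mylip, the gene that rose most below, held 3 CCAAT boxes and no sterol regulatory element core. A match is a description of the letters in a window.

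Most synthesis genes were highest in Hx P and lowest in Hx D. On each array, the median of the 17 genes was taken as a difference from the Nx P mean. It was -1.54, -1.93 and -1.61 in Hx D, against 1.26, 1.32 and 0.92 in Hx P, and -0.62, -0.52 and -0.76 in Nx D, against 0.50, -0.62 and 0.27 in Nx P. Group means ran in the order Hx P, Nx P, Nx D, Hx D for 15 of the 17 genes, an order that 4.62% of all probe sets showed. The exceptions were Lbr, highest in Nx P, and Hsd17b7, lowest in Nx P. Hsd17b7 read 12.63, 9.99 and 12.57 in Nx P, and only replicate 2 lay below the Nx D arrays (12.36, 11.57 and 12.50). For 12 of the 17, the 3 Hx P arrays lay above the other 9 arrays (2.26% of all probe sets), and for 11 the 3 Hx D arrays lay below them (12.2%).

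**Figure D1:**
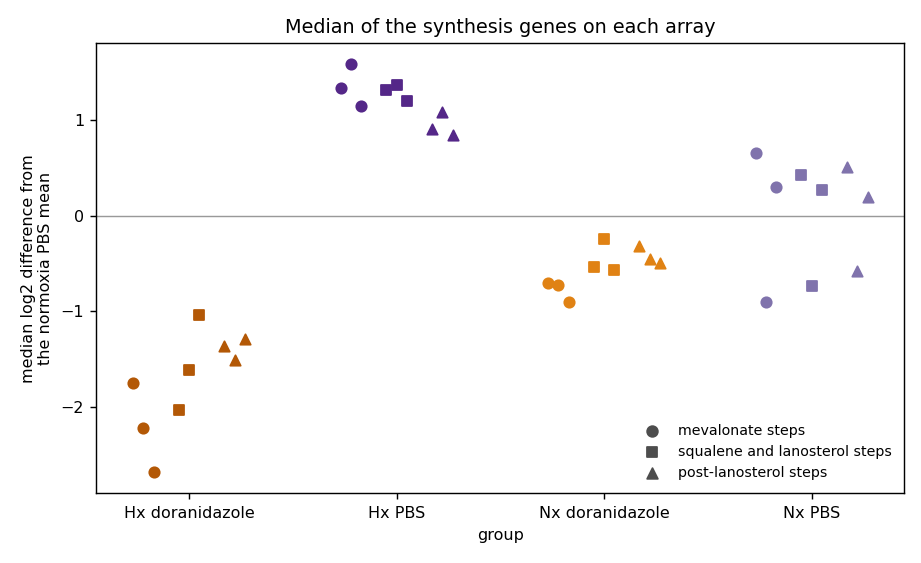
Median log2 difference from the Nx P mean over the genes of each synthesis segment (6 mevalonate, 3 squalene and lanosterol, 8 post-lanosterol genes), 1 point per array, in the 4 groups. All 3 Hx D arrays lie below all 3 Hx P arrays in each segment, and Nx P replicate 2 lies below the other Nx P arrays.

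**Figure D2:**
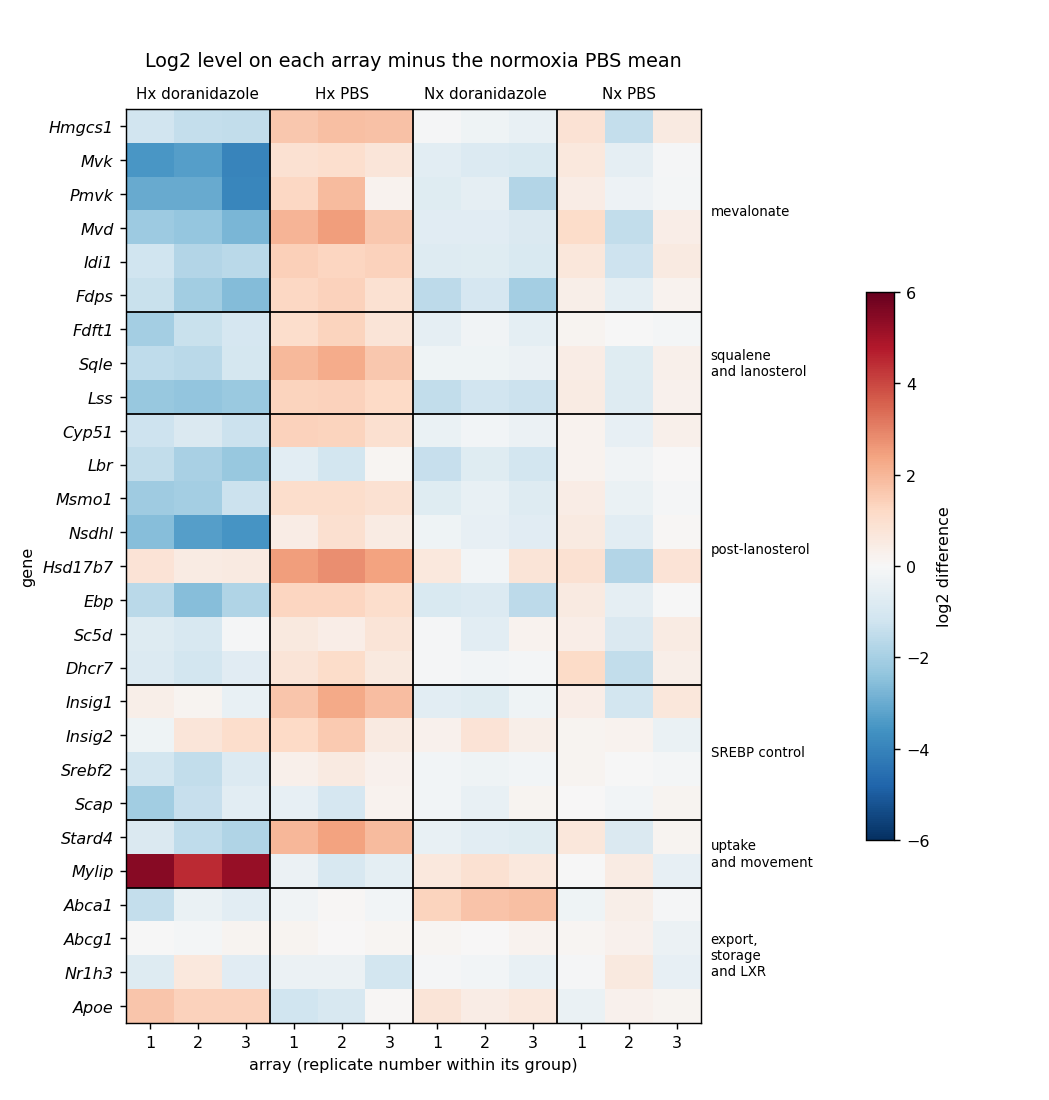
Log2 signal of the 27 measured genes (rows, grouped by role) on the 12 arrays (columns), as a difference from the mean of the 3 Nx P arrays. Synthesis genes are blue in Hx D, except Hsd17b7, and red in Hx P, except Lbr, and Mylip and Apoe are red in Hx D. The Nx P mean of Hsd17b7 includes the low replicate 2.

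Doranidazole in hypoxia was compared with PBS in hypoxia first. All 17 synthesis genes fell, with a median log2 difference of -3.08 and a range of -4.49 to -1.18. Over the 27 genes, 20 fell and 2 rose, where 15.1% and 12.6% of all 22206 probe sets were called in those directions (limma, Benjamini-Hochberg adjusted p under 0.05), and the 5 not called were Insig2, Scap, Abca1, Abcg1 and Nr1h3. In 21 genes the Hx D arrays lay below all Hx P arrays (18.1% of all probe sets) and in 2 above (20.7%). With each array's median set equal, the shares of all probe sets were 17.1% and 9.24%, and the median over all probe sets moved by over 0.1, to -0.03, against 0.09 as deposited. With dim probe sets left out, 21.8% of the probe sets kept were called lower and 15.6% higher.

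The 6 mevalonate genes fell most, with a median of -3.82. Mvk, whose product phosphorylates mevalonate, read 4.27, 4.43 and 3.78 in Hx D, against 8.68, 8.76 and 8.46 in Hx P, and 7.14, 6.91 and 6.85 in Nx D, against 8.37, 7.23 and 7.67 in Nx P. Its Hx D arrays lay below the other 9, and in hypoxia the signal was 22.2-fold lower with the drug (log2 difference -4.47 ± 0.27 (SE), adjusted p = 1.67e-07). The Mvk signals in Hx D lay below the median signals of those arrays (4.88, 4.84 and 4.75). Pmvk, which adds the next phosphate, read 7.72, 7.76 and 6.84 in Hx D, against 12.03, 12.65 and 11.00 in Hx P, and 10.02, 10.24 and 8.99 in Nx D, against 11.23, 10.45 and 10.63 in Nx P. Here too Hx D lay below the other 9 arrays, by 21.9-fold against Hx P (log2 difference -4.45 ± 0.43 (SE), adjusted p = 8.43e-06). Mvd, which decarboxylates mevalonate diphosphate, read 9.11, 8.94 and 8.52 in Hx D, against 13.34, 13.78 and 12.91 in Hx P, and 10.61, 10.58 and 10.40 in Nx D, against 12.37, 9.82 and 11.66 in Nx P. The Hx D signal was 22.4-fold lower than in Hx P (log2 difference -4.49 ± 0.48 (SE), adjusted p = 2.00e-05), and Nx P replicate 2 lay below the Nx D arrays. For Hmgcs1, which makes the HMG-CoA that enters the route, the signals were 14.36, 14.10 and 14.07 in Hx D, against 17.12, 17.34 and 17.30 in Hx P, and 15.47, 15.25 and 15.07 in Nx D, against 16.40, 14.10 and 16.09 in Nx P. It fell 8.45-fold in hypoxia (log2 difference -3.08 ± 0.44 (SE), adjusted p = 1.90e-04), though Nx P replicate 2 was as low as the Hx D arrays. Idi1, the isomerase of the isoprene units, read 11.49, 10.93 and 11.07 in Hx D, against 14.10, 13.99 and 14.05 in Hx P, and 11.93, 11.94 and 11.78 in Nx D, against 13.37, 11.45 and 13.23 in Nx P. Hx D and Hx P did not overlap and differed 7.38-fold (log2 difference -2.88 ± 0.39 (SE), adjusted p = 1.20e-04). Fdps, which joins isoprene units into farnesyl diphosphate, read 10.64, 9.87 and 9.36 in Hx D, against 13.22, 13.34 and 12.89 in Hx P, and 10.40, 10.97 and 9.95 in Nx D, against 12.34, 11.40 and 12.18 in Nx P. Its fall in hypoxia was 9.12-fold (log2 difference -3.19 ± 0.35 (SE), adjusted p = 2.41e-05), and the Hx D and Nx D arrays overlapped.

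The 3 genes that lead from farnesyl diphosphate to lanosterol had a median of -3.32. Lss, the lanosterol synthase, read 11.60, 11.53 and 11.68 in Hx D, against 15.21, 15.26 and 15.09 in Hx P, and 12.42, 12.74 and 12.59 in Nx D, against 14.39, 13.12 and 14.16 in Nx P. Its 4 groups were separate in hypoxia and with the drug, with Hx D lowest of all arrays and 12.0-fold below Hx P (log2 difference -3.58 ± 0.27 (SE), adjusted p = 9.80e-07). Sqle, the squalene epoxidase and an oxygen-using enzyme, read 10.78, 10.71 and 11.28 in Hx D, against 14.26, 14.54 and 13.93 in Hx P, and 12.08, 12.07 and 11.98 in Nx D, against 12.75, 11.58 and 12.63 in Nx P. It was 10.0-fold lower in Hx D than in Hx P (log2 difference -3.32 ± 0.29 (SE), adjusted p = 3.30e-06), and Hx P lay above the other 9 arrays. Fdft1, the squalene synthase, read 12.57, 13.28 and 13.62 in Hx D, against 15.68, 15.94 and 15.40 in Hx P, and 14.07, 14.40 and 14.04 in Nx D, against 14.77, 14.57 and 14.48 in Nx P. Its fall of 5.72-fold (log2 difference -2.52 ± 0.25 (SE), adjusted p = 1.09e-05) again put Hx D below and Hx P above all other arrays.

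The 8 measured genes that turn lanosterol into cholesterol fell less evenly, with a median of -2.15. Nsdhl, a dehydrogenase that helps remove the methyl groups of lanosterol, read 13.17, 12.39 and 12.18 in Hx D, against 16.17, 16.66 and 16.20 in Hx P, and 15.45, 15.23 and 15.03 in Nx D, against 16.26, 15.08 and 15.77 in Nx P. Its 3 Hx D arrays lay below the other 9, 13.6-fold under Hx P (log2 difference -3.76 ± 0.31 (SE), adjusted p = 2.34e-06). Ebp, a sterol isomerase, read 7.97, 7.02 and 7.76 in Hx D, against 10.89, 10.89 and 10.64 in Hx P, and 8.69, 8.78 and 8.02 in Nx D, against 10.13, 9.04 and 9.58 in Nx P. Hx D lay below and Hx P above the other arrays, 9.36-fold apart (log2 difference -3.23 ± 0.31 (SE), adjusted p = 8.23e-06). Msmo1, an oxygen-using methyl sterol oxidase, read 8.98, 9.08 and 9.84 in Hx D, against 12.17, 12.17 and 12.03 in Hx P, and 10.42, 10.70 and 10.36 in Nx D, against 11.59, 10.72 and 11.07 in Nx P. It fell 7.07-fold (log2 difference -2.82 ± 0.26 (SE), adjusted p = 5.29e-06). Cyp51, the oxygen-using lanosterol demethylase, read 13.38, 13.79 and 13.35 in Hx D, against 16.05, 15.96 and 15.62 in Hx P, and 14.26, 14.49 and 14.31 in Nx D, against 14.84, 14.13 and 14.96 in Nx P. It fell 5.16-fold (log2 difference -2.37 ± 0.23 (SE), adjusted p = 8.90e-06). Lbr, a nuclear envelope protein with sterol reductase activity, averaged 10.85 ± 0.42 in Hx D and 12.20 ± 0.60 in Hx P (SD, n = 3 each) and fell 2.55-fold (adjusted p = 0.00457). Hsd17b7, a sterol ketone reductase, averaged 12.36 ± 0.18 in Hx D and 14.30 ± 0.19 in Hx P, and fell 3.84-fold (adjusted p = 0.0167). Dhcr7, which carries out a last reduction, averaged 12.82 ± 0.20 in Hx D and 14.49 ± 0.27 in Hx P, and fell 3.20-fold (adjusted p = 0.0184). Sc5d, an oxygen-using desaturase, averaged 14.31 ± 0.45 in Hx D and 15.49 ± 0.19 in Hx P and had the smallest fall of the 17, 2.27-fold (adjusted p = 0.0253). Single arrays decided 3 of these calls. Without Hx P replicate 2 and without Hx D replicate 2 the adjusted p was 0.0524 and 0.0512 for Hsd17b7 and 0.0625 and 0.0606 for Dhcr7. For Sc5d it was 0.0676 without Hx P replicate 1, 0.0742 without Hx P replicate 3, 0.0745 without Hx D replicate 1, 0.0915 without Hx D replicate 2 and 0.06 after quantile normalization.

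**Figure D3:**
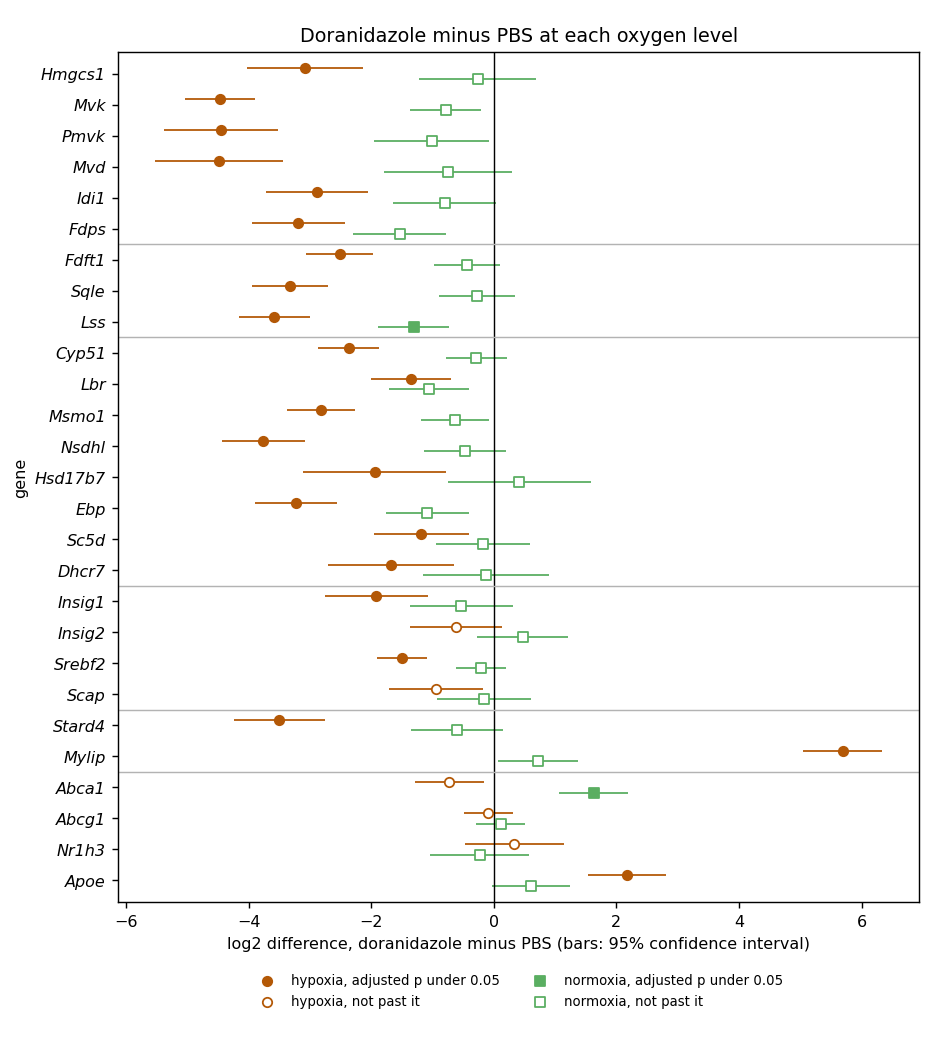
Log2 difference of doranidazole minus PBS for the 27 genes, in hypoxia (circles) and normoxia (squares), with 95% confidence intervals from the fit, filled where the adjusted p was under 0.05. In hypoxia all 17 synthesis genes lie between -4.49 and -1.18 and Mylip lies at 5.70.

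Of the 4 measured SREBP control genes, Srebf2 and Insig1 fell with doranidazole in hypoxia, and Insig2 and Scap were not called. Srebf2 read 14.48, 14.12 and 14.78 in Hx D, against 15.89, 16.12 and 15.85 in Hx P, and 15.43, 15.32 and 15.41 in Nx D, against 15.77, 15.56 and 15.46 in Nx P. Its Hx D arrays lay below the other 9, and the fall was 2.83-fold (log2 difference -1.50 ± 0.19 (SE), adjusted p = 7.21e-05). Insig1, itself a target of SREBP, read 13.45, 13.24 and 12.63 in Hx D, against 14.76, 15.35 and 14.95 in Hx P, and 12.48, 12.36 and 12.83 in Nx D, against 13.48, 11.99 and 13.79 in Nx P. It was 3.77-fold lower in Hx D than in Hx P (log2 difference -1.92 ± 0.39 (SE), adjusted p = 0.00256), but its Hx D arrays overlapped Nx P and its Hx D mean stood above the Nx D mean, whereas 16 of the 17 synthesis genes had their lowest mean in Hx D. Insig2 averaged 6.97 ± 0.68 in Hx D and 7.58 ± 0.54 in Hx P (SD, n = 3 each, adjusted p = 0.214). Scap averaged 11.89 ± 0.74 in Hx D and 12.84 ± 0.59 in Hx P (adjusted p = 0.0672), and both genes spread by over 1 log2 unit within Hx D and within Hx P.

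Stard4, which carries sterol between membranes and is a target of SREBP, followed the synthesis genes. It read 8.97, 8.33 and 8.05 in Hx D, against 11.83, 12.26 and 11.75 in Hx P, and 9.41, 9.20 and 9.14 in Nx D, against 10.54, 8.99 and 10.02 in Nx P. Hx D lay below and Hx P above the other 9 arrays, 11.3-fold apart (log2 difference -3.50 ± 0.34 (SE), adjusted p = 9.77e-06). Mylip, the ligase that works against lipoprotein uptake, went the other way with the largest difference of the 27 genes. It read 11.92, 10.93 and 11.71 in Hx D, against 6.12, 5.48 and 5.88 in Hx P, and 7.08, 7.37 and 7.11 in Nx D, against 6.46, 6.98 and 5.95 in Nx P. The lowest Hx D array lay 3.56 above the highest of the other 9, and the rise in hypoxia was 51.8-fold (log2 difference 5.70 ± 0.30 (SE), adjusted p = 7.67e-08).

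Of the 4 measured export and LXR genes, only Apoe rose in hypoxia. Apoe, a lipid-carrying apolipoprotein, read 8.91, 8.65 and 8.67 in Hx D, against 6.05, 6.32 and 7.34 in Hx P, and 8.02, 7.69 and 7.91 in Nx D, against 6.87, 7.51 and 7.41 in Nx P. Hx D lay above the other 9 arrays, 4.52-fold over Hx P (log2 difference 2.18 ± 0.29 (SE), adjusted p = 1.20e-04), and Hx P replicate 3 lay near the Nx P arrays, apart from the other Hx P arrays. Abca1, the cholesterol and phospholipid exporter, read 10.87, 11.88 and 11.65 in Hx D, against 12.07, 12.36 and 12.15 in Hx P, and 13.66, 14.02 and 14.13 in Nx D, against 12.04, 12.64 and 12.23 in Nx P. Its Hx D arrays lay below the Hx P arrays, but the difference was not called (log2 difference -0.72 ± 0.26 (SE), adjusted p = 0.0541). It was called in 5 of 21 other fits, with array medians set equal (adjusted p = 0.0333), dim probe sets left out (0.0489), the replicate block over all 12 arrays (0.0161), without Nx P replicate 2 (0.0496) and without Hx D replicate 2 (0.0243). Mylip, Apoe and Abca1 are all known LXR targets, and in hypoxia Mylip and Apoe rose while Abca1 was not called. Abcg1, another exporter, averaged 4.15 ± 0.13 in Hx D and 4.24 ± 0.07 in Hx P (SD, n = 3 each), below the median signal of the arrays. Nr1h3, which encodes one form of LXR, averaged 4.86 ± 0.79 in Hx D and 4.52 ± 0.42 in Hx P. Neither was called (adjusted p = 0.751 and 0.547).

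**Figure D4:**
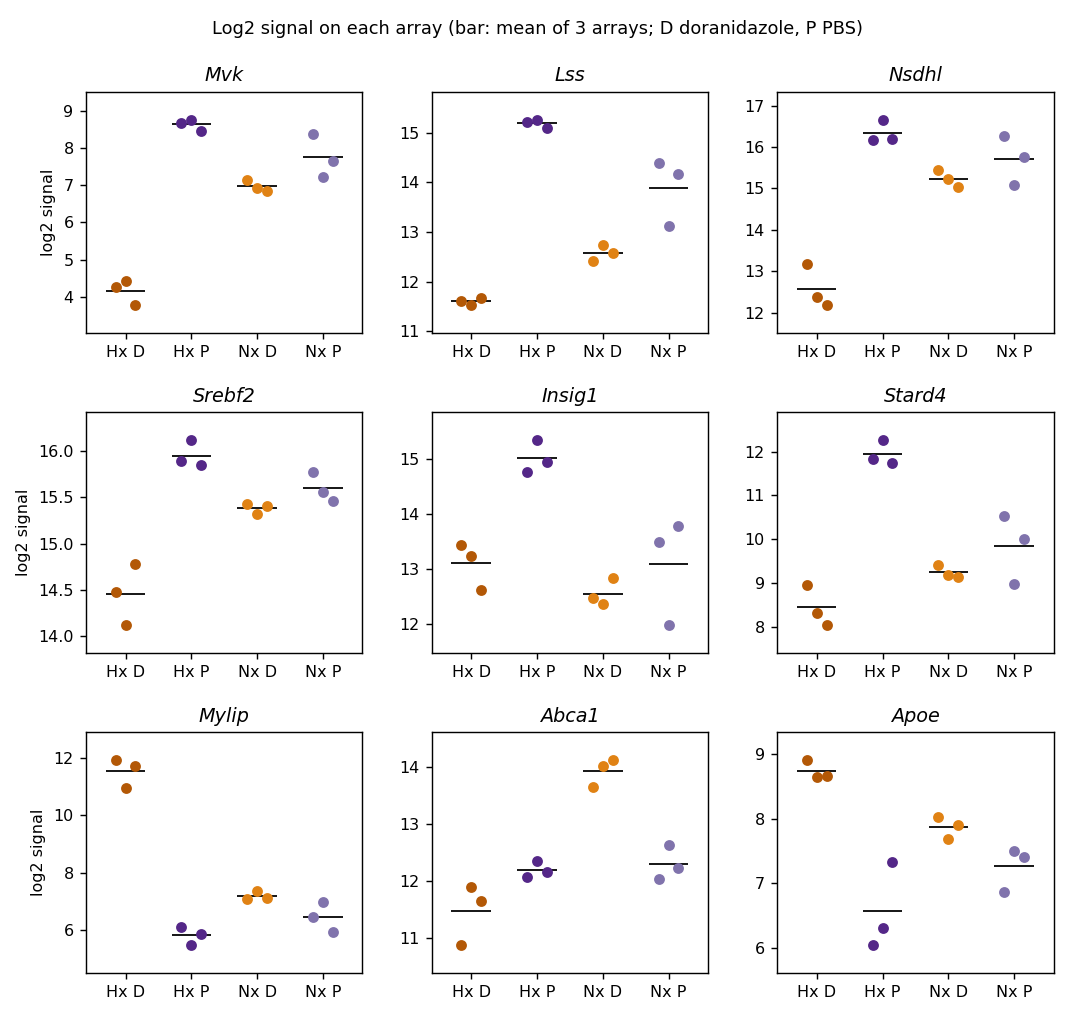
Log2 signal of 9 genes on each of the 12 arrays (points) with the mean of each group (bar), each panel on its own scale. Mvk, Lss, Nsdhl, Srebf2 and Stard4 are lowest in Hx D, Mylip and Apoe are highest in Hx D, and Abca1 is highest in Nx D.

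Other changes went with the Hx D arrays. Atf3, a stress-induced transcription factor gene, read 12.73, 12.51 and 11.28 in Hx D, against 8.77, 9.06 and 8.37 in Hx P, and rose 10.8-fold (adjusted p = 0.00172). Ddit3 read 13.20, 12.70 and 12.59 in Hx D, against 10.90, 11.45 and 7.96 in Hx P, and was not called. Mki67 read 12.04, 11.40 and 9.85 in Hx D, against 13.69, 12.59 and 15.12 in Hx P, and fell 6.52-fold (adjusted p = 0.0043). Its fall was 4.12-fold without Hx P replicate 3, 4.23-fold without Hx D replicate 3 and 9.92-fold without Hx P replicate 2. Top2a, which is needed in dividing cells, fell 7.99-fold (adjusted p = 0.00176), or 5.23-fold without Hx P replicate 3 and 4.93-fold without Hx D replicate 3. Of the 6 stem cell markers 4 fell, where 15.1% of all probe sets did, Fabp7 by 58.9-fold, Sox2 by 11.3-fold, Olig2 by 4.22-fold and Vim by 1.64-fold. The summed linear signal of the 4 microglial markers ranged from 42.2 to 55.6 in Hx D and 40.6 to 43.0 in Hx P, and that of the 3 endothelial markers from 54.7 to 63.2 in Hx D and 33.1 to 38.7 in Hx P, with Pecam1 the endothelial marker that rose (log2 difference 1.28 ± 0.32 (SE), adjusted p = 0.00854). That of the 3 astrocyte markers ranged from 37.5 to 43.6 in Hx D and 103.5 to 133.3 in Hx P. Aqp4 was the astrocyte marker that fell (log2 difference -2.36 ± 0.37 (SE), adjusted p = 4.12e-04), and Gfap and S100b were not called. The part of all these changes in the sterol gene results was not tested.

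In normoxia the same drug gave far fewer calls. Doranidazole was compared with PBS at 21% O2, and Lss was the only gene of the 27 to fall (2.48-fold, log2 difference -1.31 ± 0.27 (SE), adjusted p = 0.0302) and Abca1 the only one to rise (3.10-fold, log2 difference 1.63 ± 0.26 (SE), adjusted p = 0.0104), where 0.293% and 1.29% of all probe sets were called in those directions. All 3 Nx D arrays of Abca1 lay above the other 9 arrays. The synthesis genes had a median log2 difference of -0.63, 16 of 17 were below 0 with Hsd17b7 the exception, and in 8 of the 17 the Nx D arrays lay below all Nx P arrays (10.5% of all probe sets). Fdps had the largest difference of them and just missed the threshold (log2 difference -1.53 ± 0.35 (SE), adjusted p = 0.0501). Mylip (0.72, adjusted p = 0.311) and Apoe (0.61, adjusted p = 0.418) had all Nx D arrays above all Nx P arrays without being called. Such a separation upward was seen in 4 of the 27 genes and in 11.3% of all probe sets.

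With all Nx D arrays kept, leaving out Nx P replicate 2 moved the normoxic values. Without it the synthesis median was -0.98, all 17 differences were below 0, and 4 genes fell, Lss with -1.69 (adjusted p = 0.00388), Idi1 with -1.42 (adjusted p = 0.0167), Mvd with -1.48 (adjusted p = 0.0433) and Fdps with -1.82 (adjusted p = 0.0453), while Abca1 rose with 1.80 (adjusted p = 0.0222). Same-numbered arrays deviated together in normoxia. With the replicate number as a block, fitted on the 2 normoxic groups alone, 4 genes fell, and Abca1 rose with 1.63 (adjusted p = 0.00202). Those that fell were Fdps with -1.53 (adjusted p = 0.0236), Lbr with -1.06 (adjusted p = 0.0251), Lss with -1.31 (adjusted p = 0.0283) and Ebp with -1.08 (adjusted p = 0.0409). With the block over all 12 arrays 2 genes fell, Fdps and Lss. Of all probe sets 0.135% were called lower and 0.612% higher without Nx P replicate 2. The shares were 3.1% and 4.17% with the block on the 2 groups alone, and 0.378% and 1.6% with it over all 12 arrays. The calls for Lss and Abca1 could also each be lost to 1 array. Abca1 had an adjusted p of 0.0597 without Nx P replicate 1. Lss was not called without Nx P replicate 1, Nx P replicate 3, any of the 3 Nx D arrays or Hx P replicate 1, with adjusted p between 0.0541 and 0.144.

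Low oxygen by itself raised part of the pathway. In cells given PBS, 7 of the 27 genes were higher in hypoxia than in normoxia and none was lower (1 lower at an unadjusted p under 0.05, and 1, Apoe, with array weights), where 1.46% and 0.518% of all probe sets were called. They were Stard4 (4.28-fold, log2 difference 2.10 ± 0.34 (SE), adjusted p = 0.00728), Sqle (3.80-fold, log2 difference 1.93 ± 0.29 (SE), adjusted p = 0.00394), Cyp51 (2.35-fold, log2 difference 1.23 ± 0.23 (SE), adjusted p = 0.0166), Insig1 (3.83-fold, log2 difference 1.94 ± 0.39 (SE), adjusted p = 0.0243), Lss (2.45-fold, log2 difference 1.29 ± 0.27 (SE), adjusted p = 0.0271), Hsd17b7 (5.94-fold, log2 difference 2.57 ± 0.54 (SE), adjusted p = 0.0295) and Mvd (4.17-fold, log2 difference 2.06 ± 0.48 (SE), adjusted p = 0.0487). The synthesis median was 1.18, 16 of 17 differences were above 0 with Lbr the exception, and in 12 of the 17 the Hx P arrays lay above all Nx P arrays (9.29% of all probe sets), while in none of the 27 genes did they lie below them (9.77%). Srebf2 differed little (log2 difference 0.36 ± 0.19 (SE), adjusted p = 0.457). None of the 7 calls held under every alternative. Fitted on the Hx P and Nx P arrays alone, none of the 27 genes was called (adjusted p of the 7 between 0.0595 and 0.173), and with the replicate number as a block in that fit only Sqle of the 7 was, beside Fdft1 and Insig2. Without Nx P replicate 2, 6 were higher, Mvd, at 1.33, and Cyp51, at 0.98, were no longer called (adjusted p = 0.0556 and 0.0525), Hsd17b7 was still called at 1.70, and Hmgcs1 was newly called at 1.01 (adjusted p = 0.0374). Without Hx P replicate 1, and without Hx P replicate 2, only Sqle and Stard4 of the 7 were called, and without Hx P replicate 3, 11 were higher and Apoe was lower. Without Hx P replicate 3, 2.95% of all probe sets were called higher and 3.5% lower. The share higher was 0.617% without Hx P replicate 1, 0.635% without Hx P replicate 2 and 0.896% without Nx P replicate 2. On the Hx P and Nx P arrays alone it was 0.477%, or 1.15% with the block. Hsd17b7 was also lost without Nx D replicate 1 (adjusted p = 0.052), and Mvd without Nx P replicate 3, any Nx D array, Hx D replicate 1 or Hx D replicate 2 (adjusted p between 0.0582 and 0.0815).

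With doranidazole present the oxygen difference had the opposite sign for most synthesis genes. Hsd17b7 and Insig1, both called higher with PBS, stayed above 0 with the drug (0.22 and 0.55, not called). Lbr and Scap were below 0 with either treatment. Among drug-treated cells 13 of the 27 genes were lower in hypoxia than in normoxia and 2 higher, where 16.5% and 13.5% of all probe sets were called. This comparison and the preceding ones share their arrays, so they are not independent of each other. Among the synthesis genes 10 of 17 were lower, with a median of -0.98, and in 14 the Hx D arrays lay below all Nx D arrays (20.4% of all probe sets). Mvk (6.99-fold, log2 difference -2.81 ± 0.27 (SE), adjusted p = 8.99e-06), Nsdhl (6.31-fold, log2 difference -2.66 ± 0.31 (SE), adjusted p = 4.68e-05) and Pmvk (4.97-fold, log2 difference -2.31 ± 0.43 (SE), adjusted p = 0.00148) had the largest differences among them. Srebf2 was 1.91-fold lower (adjusted p = 0.00263) and Scap 2.30-fold lower (adjusted p = 0.0219). Abca1, highest in Nx D, was 5.53-fold lower in Hx D (log2 difference -2.47 ± 0.26 (SE), adjusted p = 2.00e-05), while Mylip was 20.2-fold higher (log2 difference 4.34 ± 0.30 (SE), adjusted p = 7.77e-07) and Apoe 1.83-fold higher (log2 difference 0.87 ± 0.29 (SE), adjusted p = 0.039). Of these 15 calls, 8 held under every alternative tried, and Apoe, Ebp, Mvd, Scap, Lss and Cyp51 were each lost when some single array was left out. The adjusted p reached 0.126 for Apoe and 0.0568 for both Lss and Cyp51 without Nx D replicate 2, and 0.0578 for Mvd without it. It reached 0.16 for Ebp without Hx D replicate 2 and 0.0921 for Scap without Hx D replicate 1. After quantile normalization Ebp was at -0.41 (adjusted p = 0.404), Mvd at -1.29 (0.0881), Lss at -0.77 (0.055) and Cyp51 at -0.65 (0.0677), and after cyclic loess these 4 and Scap were not called (adjusted p between 0.055 and 0.224). Ebp was also not called on the Hx D and Nx D arrays alone (0.0586), nor Apoe with array medians set equal (0.0771) or array weights (0.082).

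**Figure D5:**
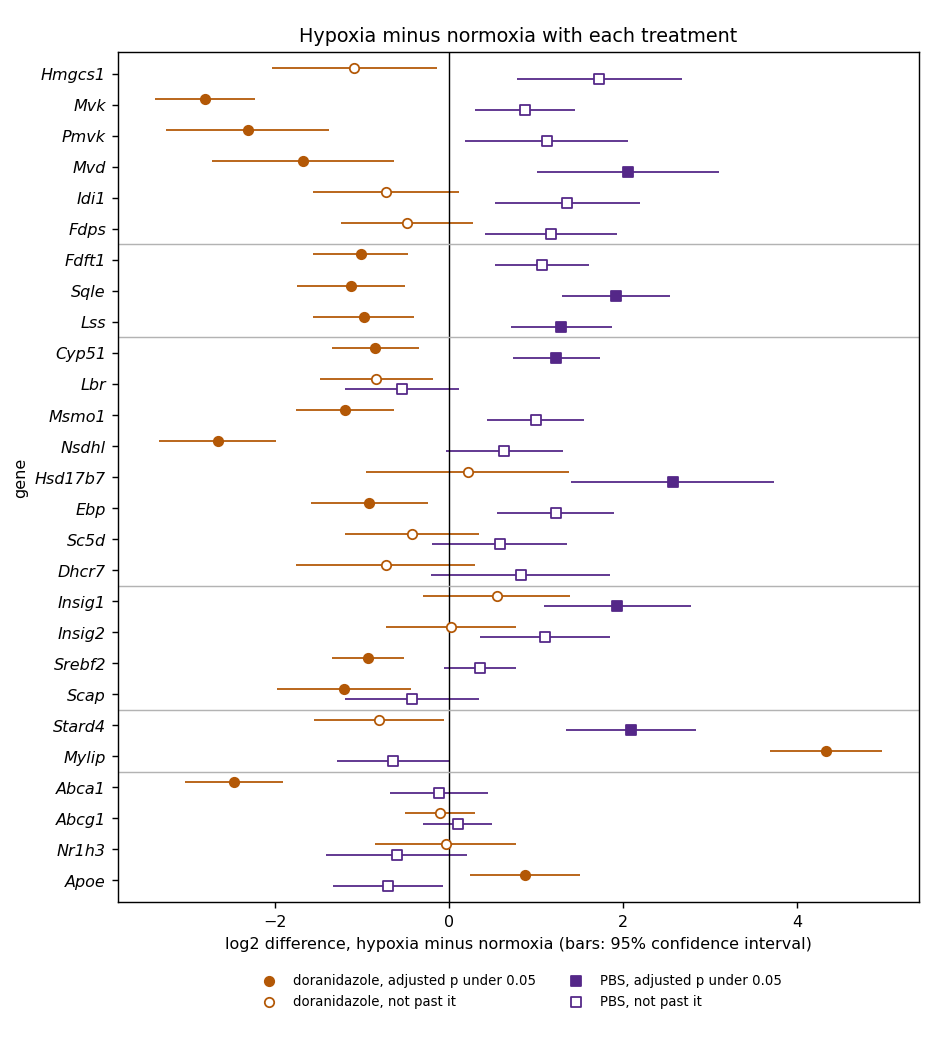
Log2 difference of hypoxia minus normoxia for the 27 genes, with doranidazole (circles) and with PBS (squares), with 95% confidence intervals from the fit, filled where the adjusted p was under 0.05. Most synthesis genes lie above 0 with PBS, with a median of 1.18, and below 0 with doranidazole, with a median of -0.98.

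Whether the drug response itself differed between the oxygen levels was tested as an interaction, the log2 response in hypoxia minus that in normoxia. It was negative for 16 of the 27 genes and positive for 2, where 8.5% and 5.02% of all probe sets were called, and 13 of the 16 were synthesis genes. Every measured mevalonate gene and every squalene and lanosterol gene of the set was among them, with medians of -3.12 and -2.27. The largest were Mvd (-3.74 ± 0.68, adjusted p = 0.00291), Mvk (-3.68 ± 0.38, adjusted p = 5.19e-05) and Pmvk (-3.44 ± 0.61, adjusted p = 0.00244). Lbr, Hsd17b7, Sc5d and Dhcr7 were not called, Lbr with -0.29 ± 0.43, adjusted p = 0.703 and Hsd17b7 with -2.35 ± 0.76, adjusted p = 0.0599. Hsd17b7 passed without Nx P replicate 2, with -1.48 (adjusted p = 0.0177). Outside synthesis, Stard4 (-2.90 ± 0.49, adjusted p = 0.00171), Srebf2 (-1.29 ± 0.27, adjusted p = 0.00646) and Abca1 (-2.36 ± 0.37, adjusted p = 0.00102) had negative interactions, and Mylip (4.97 ± 0.42, adjusted p = 1.50e-05) and Apoe (1.57 ± 0.41, adjusted p = 0.0237) positive ones. Insig1 (-1.39 ± 0.55, adjusted p = 0.121) was not called. For Abca1 the interaction joined a called rise in normoxia with a difference of -0.72 in hypoxia that was not called. The Fdps call was lost after quantile normalization (-1.34, adjusted p = 0.123) and cyclic loess (-1.41, adjusted p = 0.111). Calls for Fdps, Apoe and Idi1 were lost with single arrays left out. Without Nx P replicate 2 the adjusted p was 0.0906 for Fdps and 0.0528 for Apoe, and the differences of Mvd (-3.00), Hmgcs1 (-2.10) and Idi1 (-1.46) were smaller by over 1.5-fold while still called. Over the omissions the adjusted p reached 0.11 for Fdps (8 arrays, Nx D replicate 2 the highest), 0.0622 for Apoe (6 arrays, Nx D replicate 2 the highest) and 0.0555 for Idi1 (4 arrays, Nx D replicate 1 the highest).

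Genes of the pathway outside the 27 were counted from a list of 30, of which 25 were measured. In hypoxia 6 rose and 12 fell with doranidazole, with a median of -0.45, and in normoxia 3 rose and none fell (2 lower at an unadjusted p under 0.05). Of all probe sets 12.6% were called higher and 15.1% lower in hypoxia, and 1.29% and 0.293% in normoxia. The largest in hypoxia were Lipa, the lysosomal lipase that frees cholesterol from taken-up lipoproteins (13.6-fold higher, log2 difference 3.76 ± 0.29 (SE), adjusted p = 1.45e-06), Vldlr, a lipoprotein receptor (13.5-fold lower, log2 difference -3.75 ± 1.07 (SE), adjusted p = 0.019), and Pgrmc1, a heme-binding partner of sterol-modifying enzymes (9.25-fold higher, log2 difference 3.21 ± 0.18 (SE), adjusted p = 1.09e-07). Lipa read 11.97, 11.05 and 12.15 in Hx D, against 8.19, 8.08 and 7.63 in Hx P, and 10.02, 9.93 and 9.59 in Nx D, against 8.29, 7.89 and 7.51 in Nx P, so that both drug groups lay above both PBS groups. Pgrmc1 read 16.54, 16.55 and 16.80 in Hx D, against 13.39, 13.34 and 13.52 in Hx P, and 14.55, 14.91 and 14.41 in Nx D, against 13.71, 14.04 and 13.74 in Nx P, with the drug groups again above the PBS groups. Vldlr read 9.87, 9.33 and 8.43 in Hx D, against 13.38, 13.97 and 11.54 in Hx P, and 8.74, 11.52 and 8.35 in Nx D, against 9.41, 12.44 and 7.83 in Nx P, and its normoxic arrays with the number 2 stood apart in both groups. Its fall in hypoxia was not called without Hx P replicate 1 (adjusted p = 0.0655), Hx P replicate 2 (0.0719) or Hx D replicate 3 (0.0544), and was 22.1-fold without Hx P replicate 3. In normoxia the 3 that rose were Lipa (3.87-fold, log2 difference 1.95 ± 0.29 (SE), adjusted p = 0.0095), Lrp1, an endocytic receptor (2.74-fold, log2 difference 1.45 ± 0.30 (SE), adjusted p = 0.0341), and Pgrmc1 (1.73-fold, log2 difference 0.79 ± 0.18 (SE), adjusted p = 0.0495). Each of these 3 calls could be lost to 1 array, Lipa without Nx D replicate 1 (adjusted p = 0.063), Lrp1 without Nx P replicate 1, Nx P replicate 2, any Nx D array or Hx P replicate 1 (up to 0.149), and Pgrmc1 without any array except Hx P replicate 3 and Hx D replicate 3 (up to 0.183). Lrp1 was lower with the drug in hypoxia (log2 difference -1.53 ± 0.30 (SE), adjusted p = 0.0022). Mbtps1, the protease that first cuts SREBP, was chosen after its values were seen. It read 9.67, 9.64 and 10.46 in Hx D, against 13.05, 13.00 and 12.84 in Hx P, and 12.30, 13.06 and 12.15 in Nx D, against 13.49, 13.53 and 12.92 in Nx P and fell 8.24-fold in hypoxia (log2 difference -3.04 ± 0.28 (SE), adjusted p = 6.32e-06).

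Of 11 genes of fatty acid synthesis and desaturation known as SREBP-1 targets 10 were measured, and 9 fell with doranidazole in hypoxia with a median of -1.99, where 15.1% of all probe sets fell. None was called in normoxia by limma (1 higher and 2 lower at an unadjusted p under 0.05), where 1.29% of all probe sets rose and 0.293% fell. Acss2 (log2 difference -3.38) and Elovl6 (-2.93) were the lowest of them, and Me1 was the gene not called (0.65, adjusted p = 0.0762). Of 6 LXR targets outside the 27, 5 were measured. In hypoxia 1 of the 5, Abcg4, rose (2.24) and 1, Lpcat3, fell (-1.75), where 12.6% and 15.1% of all probe sets were called. Abcg4 read 3.80, 3.75 and 4.06 in Hx P, below the median signals of the arrays. In normoxia 1 of the 5, Pltp, a phospholipid transfer protein gene, rose, where 1.29% of all probe sets did. These genes were chosen after their values were seen. Pltp read 3.49, 3.99 and 4.28 in Hx D, against 3.26, 3.14 and 4.44 in Hx P, and 7.32, 6.84 and 9.40 in Nx D, against 4.09, 3.90 and 5.50 in Nx P. The Nx D arrays lay above the other 9, 10.2-fold over Nx P (log2 difference 3.35 ± 0.60 (SE), adjusted p = 0.0173), the same group in which Abca1 was highest. It was not called without Nx P replicate 1 (adjusted p = 0.0882), Nx P replicate 2 (0.0631) or Nx D replicate 1 (0.0667), and was 5.98-fold without Nx D replicate 3.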

How the data were processed

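RNA of 12 samples, 3 in each of 4 groups, was measured on Clariom S Mouse arrays. The deposited values are log2 signals per probe set that the authors made with Transcriptome Analysis Console. The summarization of probes, the background correction and any scaling across arrays were not given in the sources used here. Among the 22206 probe sets, 19572 carried 1 gene symbol in the platform annotation and 2634 were unnamed here. Both deposited tables held identical values.

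All probe sets were fitted with limma 3.58.1 in R 4.3.3 on the log2 values as deposited, over all 12 arrays with a mean for each group. Tests were two-sided, p-values were adjusted by Benjamini-Hochberg over all 22206 probe sets, and a gene was called at an adjusted p under 0.05. The fit was tested on simulated data with 200 changed probe sets. The members, gene lists and tests were chosen with earlier results of these data known. Values on each array were given for members called in the interaction and for the 2 largest in each role group in hypoxia, and the 3 largest calls of the other pathway genes were named in each drug comparison. Replicate numbers were taken to pair the arrays where every same-numbered pair of deviations from the group means correlated above 0.1, which held for the drug comparison in normoxia (0.202, 0.329 and 0.326). Alternatives were other scalings, a filter on dim probe sets, other variance models, the replicate block, each comparison alone, a fold threshold and leaving out each array. The number of arrays limits the precision.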

Additional observations from a re-analysis of the deposited data

Results flagged for a closer look

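The drug response, doranidazole minus PBS, differed between hypoxia and normoxia by the interaction test for 18 genes (limma, adjusted p under 0.05). The values below are the log2 response in hypoxia minus that in normoxia. Among the mevalonate genes the difference was -2.81 for Hmgcs1, -3.68 for Mvk, -3.44 for Pmvk, -3.74 for Mvd, -2.08 for Idi1 and -1.66 for Fdps. Among the squalene and lanosterol genes it was -2.08 for Fdft1, -3.05 for Sqle and -2.27 for Lss. After lanosterol it was -2.08 for Cyp51, -2.19 for Msmo1, -3.29 for Nsdhl and -2.14 for Ebp. Srebf2 had -1.29 and Stard4 -2.90. Abca1 had -2.36, with a response above 0 in normoxia and below 0 in hypoxia. Mylip had 4.97 and Apoe 1.57. Mylip and Apoe rose in hypoxia and were not called in normoxia. The part of Atf3, Mki67 and the other genes that moved with the Hx D arrays was not tested.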

How the results depend on the processing

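Of 64 calls over the 5 comparisons, 42 held under every alternative run, and none of the results changed sign as a call. In hypoxia 19 of 22 drug calls and 15 of 18 interaction calls held under every alternative. The count of genes lower with doranidazole in normoxia, 1 as reported, was 2 with dim probe sets left out, with a trended and robust prior, with the replicate block over all 12 arrays and with only the 2 groups compared, 6 with array weights, 4 with the replicate block over those groups alone, and 5 for a fold over 2 at an unadjusted p under 0.05. In that order 0.502%, 0.261%, 0.378%, 1.79%, 2.29% and 3.1% of the probe sets fitted were called lower, against 0.293% as reported. No share was counted for the fold threshold. The count higher in hypoxia with PBS, 7 as reported, was 15 with array weights, 3 with the replicate block over the 2 groups alone, 0 with only those groups and 14 by the fold threshold, and the count lower was 1 with array weights. With array weights 4.68% of all probe sets were called higher and 5.56% lower, against 1.46% and 0.518% as reported. The share higher was 1.15% with that block and 0.477% with only those groups. With doranidazole, the count higher in hypoxia was 1 with array medians set equal, with array weights and by the fold threshold, and the count lower was 8 after cyclic loess. Of all probe sets 12.1% were called higher with array weights and 13.2% lower after cyclic loess, against 13.5% and 16.5% as reported. The cause of these changes in count was not tested. With 1 array left out, the drug comparison gave 0 to 1 higher and 0 to 4 lower in normoxia, and 2 to 2 higher and 18 to 21 lower in hypoxia. Over these omissions 0.162% to 1.99% of all probe sets were called higher and 0.00901% to 0.901% lower in normoxia. In hypoxia the shares were 8.65% to 15% higher and 12.3% to 16.8% lower. The oxygen comparison gave 2 to 11 higher and 0 to 1 lower with PBS, and 1 to 2 higher and 9 to 17 lower with doranidazole. Shares of all probe sets called higher and lower were 0.617% to 2.95% and 0.045% to 3.5% with PBS. With doranidazole they were 8.75% to 16% and 13.1% to 18.6%. The interaction gave 1 to 2 higher and 14 to 18 lower, where 3.41% to 8.01% and 6.4% to 11.6% of all probe sets were called.

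After quantile normalization the shares of all probe sets called higher and lower were 13.5% and 12.9% for the drug in hypoxia, 13.6% and 12.8% for hypoxia with doranidazole, and 6.45% and 6.72% for the interaction. With array medians set equal the last 2 were 9.28% and 18.5%, and 3.86% and 9.44%. With dim probe sets left out, the shares of the 15544 kept were 15.6% and 21.8% for the drug in hypoxia. They were 16.2% and 23.9% for hypoxia with doranidazole, and 6.7% and 12.7% for the interaction. Insig2 was the only member whose sign turned under a scaling, in hypoxia against normoxia with doranidazole and with array medians set equal, and it was not called. Same-numbered arrays were not taken as paired in the other comparisons, where some correlation fell below 0.1 (-0.0202, -0.024 and -0.0466 for the drug in hypoxia, -0.0205, 0.264 and 0.356 for oxygen with PBS, and 0.143, 0.031 and -0.00816 for oxygen with doranidazole). For oxygen with PBS, replicates 2 and 3 correlated about as strongly as for the drug in normoxia (0.202, 0.329 and 0.326). Averaging several probe sets of a gene was not run, since each member had 1. The number of arrays, 3 a group from a single experiment, limits the precision.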
